A study of Mus musculus with 6 samples.

Results

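The genes described here are 42 mouse genes of the interferon response and of antigen presentation by MHC class I, chosen by name from 7 functional classes. Earlier results of these data were known when they were chosen. They comprise 14 antiviral effectors, 5 transcription factors, 3 RNA sensors, 6 interferon-inducible GTPases, 5 immunoproteasome genes, 7 genes of MHC class I presentation and 2 interferon receptor chains. Of the 42, 41 were among the 21949 genes of the deposited table, which lists 50660 transcripts, and Mx2 was not analysed here. RNA was sequenced from pancreatic acinar cells, the cells that make digestive enzymes, after digestion of the pancreas and sorting by flow cytometry. There were 6 libraries, 3 from a control group that the labels call WT and 3 from a group given cerulein. Every library came from adult transgenic mice on a CD1-enriched background with the genotype ElastaseCreER/ROSA26YFP, so the control animals carried the Cre driver and the YFP reporter too. Cerulein is an analogue of cholecystokinin, the hormone that makes acinar cells secrete, and at high doses it injures the pancreas. It was injected 7 times a day, every other day within 3 days, and the animals then recovered for 1 day. The Cre is driven by the elastase promoter, so the reporter marks cells that have used that promoter, and the labels do not say which gate was used in the sort. Since nothing in the labels ties each library to its own animal, p-values take in only how these samples varied, and that variation may be technical.

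Interferons of type I bind the receptor chains Ifnar1 and Ifnar2, and interferon gamma binds Ifngr1 and Ifngr2. Janus kinases then pass on the signal, and a complex that holds Stat2 and Irf9 binds interferon-stimulated response elements in the promoters of antiviral genes, while genes that respond to interferon gamma often carry gamma-activated sites. The induced proteins block viral RNA and proteins, and they also raise antigen presentation, in which the immunoproteasome cuts peptides, the Tap1 and Tap2 transporter carries them into the endoplasmic reticulum, and an MHC class I heavy chain such as H2-K1 shows them at the cell surface together with B2m.

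Values are FPKM, fragments per kilobase of transcript scaled to the size of the library, whose decimal marks had been damaged in the deposited table and were restored from the whole number of fragments behind each gene. A member counts as restored when its level could be placed in all 6 libraries, which held for 27 of the 41. For the other 14 members only the lowest and the highest level that the digits allow can be given in at least 1 library. The fragment total behind the FPKM scale came, rounded, to 3500000, 4060000 and 4470000 in control libraries 1, 2 and 3, and to 12710000, 16140000 and 18960000 in cerulein libraries 1, 2 and 3. These bases were 0.981 to 1.14 times the fragments restored in the control libraries but 3.20 to 4.22 times those restored in the cerulein libraries, so levels set across the groups rest on the deposited scale. For a transcript of 2000 bases, 3 fragments, the limit that a count of 0 allows, corresponded to 0.371 to 0.465 FPKM in control libraries and to 0.0882 to 0.130 FPKM in cerulein libraries. Low levels were therefore measured less precisely in the controls, and such limits cover counting error only.

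A pair of libraries stood apart from the others in their groups. Cerulein library 2 held the highest level of 23 of the 27 restored members, whereas 16.0% of the 10214 genes restored with a mean of at least 0.1 FPKM peaked there. Control libraries 1, 2 and 3 held the highest level of 2, 1 and 0 members (26.6%, 16.7% and 14.5% of the genes), and cerulein libraries 1 and 3 of 0 and 1 (10.6% and 15.6%). Cerulein library 2 was at least 4-fold above every other library, on a scale of FPKM + 0.1, for 9 members (Bst2, H2-K1, Ifi44, Irf7, Oas1a, Oasl2, Rsad2, Rtp4 and Usp18), against 0.48% of the same genes. For 0 members did another library lie that far above the rest, while 2.94%, 0.372% and 0.117% of genes did so in control libraries 1, 2 and 3, and the shares for cerulein libraries 1 and 3 were 0.0881% and 0.127%. With no decimal placement assumed, its lowest possible level exceeded the highest possible level of every other library for 12 of 41 members, against 8.2% of 16297 detected genes. By that stricter reading 5 members (Ifi44, Oas1a, Rsad2, Usp18 and Xaf1) were at least 4-fold above every other library, against 0.491% of genes. Control library 1 differed from control libraries 2 and 3 in markers of other cells: the summed level of 8 leukocyte and macrophage genes was 34.6 FPKM there against 5.35 and 0.539 FPKM, and that of 4 endothelial genes was 17.0 FPKM against 0.129 FPKM and 0. Results that rest on either library are given below with and without it, and library 2 was singled out after its values were seen.

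**Figure D1:**
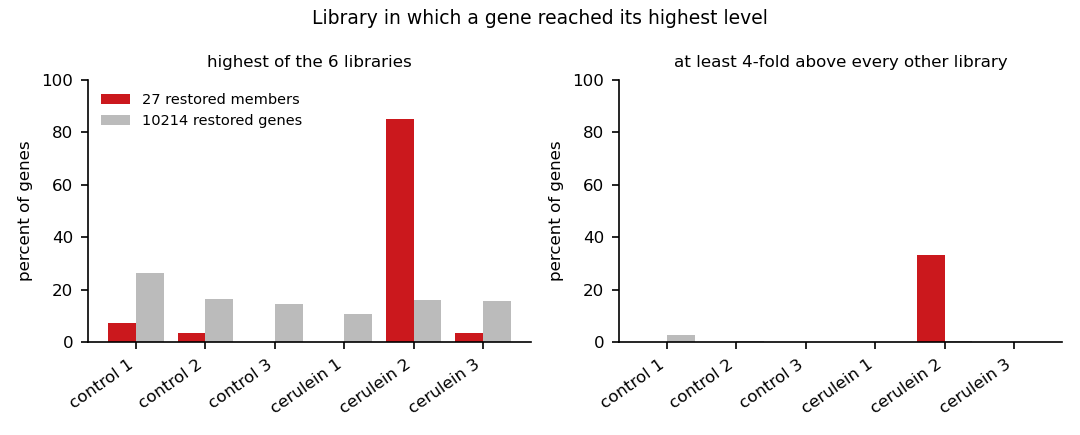
Percent of the 27 restored members (red) and of 10214 restored genes (grey) whose level was highest in each library (left), or at least 4-fold above every other library (right). Cerulein library 2 held the highest level of 23 members, and 9 members were at least 4-fold above every other library there.

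The labelled cell type was checked on its markers. The 8 acinar markers summed to 209568 to 256588 FPKM in control libraries and to 35659 to 66029 FPKM in cerulein libraries, and none was listed at 0 in any library. Of these 8, 6 fell at an adjusted p under 0.05 by limma. Markers of leukocytes and macrophages moved the other way: 5 of 8 tested genes rose, and the summed level of the 8 restored genes was 80.5, 201.3 and 225.1 FPKM in cerulein libraries 1, 2 and 3. In bulk RNA, fewer cells of a type and less RNA per cell cannot be told apart.

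Promoters were read for the 34 members that have a window in the RefSeq promoter table (GRCm38.p6), each window running from 250 bases before to 50 bases after a gene's start. The core of the interferon-stimulated response element was searched as GAAANNGAAA, or TTTCNNTTTC when the motif lies on the other strand, and it occurred in 16 of the 34 members (47.1%) against 3.99% of all 27025 genes with a window. The gamma-activated site, searched as TTCNNNGAA, which reads the same on both strands, occurred in 9 of 34 members (26.5%) against 9.55% of all genes. In 1 of the 41 windows of the members, that of Bst2, the motifs shared bases. By class, the response element core was present in both RNA sensors with a window, in 5 of 5 GTPases, in 6 of 10 antiviral effectors, in 1 of 5 transcription factors, in 1 of 5 immunoproteasome genes and in 1 of 5 genes of MHC class I presentation. Ifi44 and Irf7 were, as placed, the restored members with the highest ratio of cerulein library 2 to the next library. Their windows did not hold these letters, and nothing about a factor follows from that. The following 7 stretches, each read 5′ to 3′ on the strand of the gene and lying before its start, are shown because they carry the core in members that differ in their pattern over libraries; capitals mark the core.
Isg15 (chr4:156200845-156200926, minus strand): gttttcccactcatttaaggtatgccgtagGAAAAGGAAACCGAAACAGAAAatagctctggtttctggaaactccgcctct
Ifit1 (chr19:34640755-34640843, plus strand): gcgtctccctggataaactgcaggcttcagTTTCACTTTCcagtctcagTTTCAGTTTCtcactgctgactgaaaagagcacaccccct
Rsad2 (chr12:26456533-26456602, minus strand): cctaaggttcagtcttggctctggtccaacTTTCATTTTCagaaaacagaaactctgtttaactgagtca
Bst2 (chr8:71537557-71537632, minus strand): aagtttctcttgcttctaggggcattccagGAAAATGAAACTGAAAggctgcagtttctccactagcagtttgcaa
Stat2 (chr10:128270248-128270315, plus strand): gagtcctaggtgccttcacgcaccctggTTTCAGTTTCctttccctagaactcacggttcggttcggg
B2m (chr2:122147518-122147587, plus strand): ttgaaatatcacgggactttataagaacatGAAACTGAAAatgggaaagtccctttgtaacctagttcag
Gbp2 (chr3:142620574-142620643, plus strand): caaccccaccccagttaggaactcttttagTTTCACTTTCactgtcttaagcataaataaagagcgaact
In Isg15 several copies formed a single run, and in Ifit1 a pair of copies was separated by a short spacer. The core nearest to the start lay 66 bases before it in Isg15, 85 in Ifit1, 124 in Bst2, 120 in Rsad2, 139 in B2m, 222 in Stat2 and 59 in Gbp2. As placed, Isg15, Ifit1, Rsad2, Bst2, Stat2 and B2m were highest in cerulein library 2, whereas Gbp2 was highest in control library 1.

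The comparison that the design implies is that of cerulein with control. By limma on log2(FPKM + 1), 0 of 19 tested members changed at an adjusted p under 0.05, against 6.39% of the 6166 genes tested (3.71% higher and 2.68% lower). At an unadjusted p under 0.05 there were 9 of 19 members, against 25.0% of all tested genes. The log2 fold change, cerulein minus control, was positive in 18 of 19 members and in 52.4% of all tested genes, and its median was 1.21 in the members and 0.05 over all tested genes. These are descriptions only, since 12 of the 19 members had a control mean under 1 FPKM and passed the filter through the cerulein libraries alone, which favours a positive sign, as did 10.1% of all tested genes. Without cerulein library 2 the members' median was 0.56, and none passed, against 1.17% of all genes. With no filter on low levels 0 members passed either, against 0.975% of 13023 genes. Without control library 1, however, 5 members passed and were higher in cerulein (Gbp2, H2-K1, Ifngr1, Irf8 and Psmb8), and the share over all genes was then 16.2%. Without cerulein library 1, 3 members passed (Ifngr1, Irf8 and Psmb8), against 5.25% of all genes. When each library was scaled to its sum outside the digestive enzymes, which moved the median over all genes by 0.34, the members' median was 1.46 and 4 passed (Ddx58, Ifngr1, Irf8 and Psmb8), against 11.1% of all genes.

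**Figure D2:**
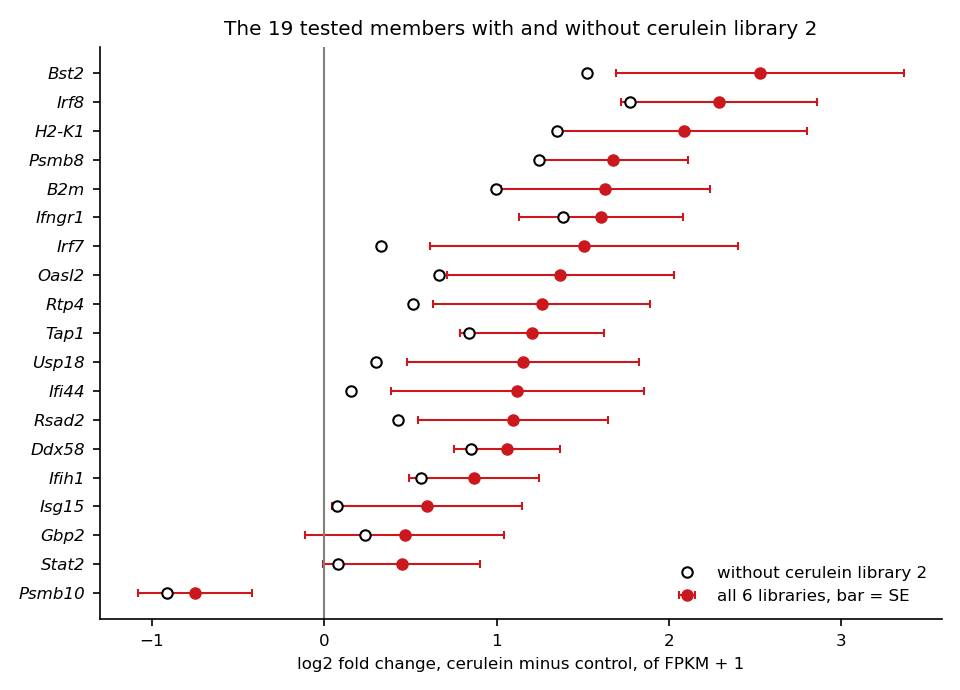
Log2 fold change, cerulein minus control, of FPKM + 1 for the 19 tested members, with all 6 libraries (filled, bar = SE) and without cerulein library 2 (open). Of the 19, 18 lie above 0 with all libraries, Psmb10 lies below 0, and leaving out cerulein library 2 moved Irf7 from 1.51 to 0.33 and Ifi44 from 1.12 to 0.16.

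A further reading needs no placement of the decimal mark. In 9 of 41 members the lowest possible level of every cerulein library lay above the highest possible level of every control library, against 8.74% of 16297 detected genes, and 0 members lay the other way, against 2.4%. The 9 were Ddx58, Dhx58, Ifi44, Ifit1, Irf8, Irf9, Mx1, Psmb8 and Usp18. In 5 of them (Ifit1, Mx1, Usp18, Ifi44 and Dhx58) the lowest cerulein library lay under the level that 3 fragments give in a control library, so that the separation from the controls was not detectable at this depth in every cerulein library. Irf8, Irf9, Ddx58 and Psmb8 lay above that level in every cerulein library. The count was again 9 without cerulein library 2, 14 without cerulein library 1 and 25 without control library 1, while 10.7%, 13.3% and 20.04% of the genes lay higher. With accepted placements used, 14 members lay higher and 1 (Psmb10) lower in every cerulein library, against 14.2% and 7.2% of genes.

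Of the receptors, Ifngr1, the ligand-binding chain for interferon gamma (chromosome 10, 19591949 to 19610229), measured 4.83, 2.29 and 1.51 FPKM in control libraries 1, 2 and 3 and 4.93, 14.0 and 14.3 FPKM in cerulein libraries 1, 2 and 3. As placed, cerulein libraries 2 and 3 were alike and stood clear of the controls, while cerulein library 1 barely exceeded control library 1. The digits of Ifngr1 allow 4.83 to 483 FPKM in control library 1. They allow 1.40 to 140 and 1.43 to 143 FPKM in cerulein libraries 2 and 3, so that order rests on the placement. The difference on the log2 scale, 1.60 (SE 0.48), had a limma adjusted p of 0.0815. The log2 fold change was 1.39 without cerulein library 2 (adjusted p = 0.285) and 1.94 without control library 1 (adjusted p = 0.0351), and without cerulein library 1 it was 2.05 (adjusted p = 0.0467). Ifnar1, a chain of the type I receptor, could not be placed in control library 2, where it lay between 3.10 and 310 FPKM. It measured 2.62 and 1.82 FPKM in control libraries 1 and 3 and 3.31, 5.94 and 6.69 FPKM in the cerulein libraries, so the placed cerulein levels were the higher ones.

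Among the transcription factors, Irf7, which amplifies the type I response and is itself interferon-induced (chromosome 7, 141262706 to 141266481), was concentrated in a single library. It measured 1.31, 0 and 0.142 FPKM in control libraries 1, 2 and 3 and 0.589, 19.2 and 0.894 FPKM in cerulein libraries 1, 2 and 3. The level of cerulein library 2 rested on 523 fragments and was 14.6 times the next highest, which was that of control library 1, and the other cerulein libraries lay within the control range. The digits of Irf7 in cerulein library 2 allow 4.87 to 455 FPKM, so that ratio rests on the placement. When agreement among replicates was weighed in the placement, the log2 fold change was 0.91 at a spread of 0.6 and 1.51 at one of 1.5. The log2 fold change was 1.51 (SE 0.89), with a limma adjusted p of 0.333, and 0.33 without cerulein library 2, with one of 0.802. Exons of Irf7 overlap those of Phrf1, and the labels do not say whether counting used the strand.

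Irf8, a factor of myeloid and dendritic cells as well as of the interferon gamma response (chromosome 8, 120736358 to 120756694), had another pattern. It measured 1.23, 0 and 0.0842 FPKM in control libraries and 1.87, 12.4 and 6.36 FPKM in cerulein libraries, so the groups did not overlap and cerulein library 3 was raised as well. Its log2 fold change, 2.29 (SE 0.57), came nearest to the threshold among the members, with a limma adjusted p of 0.0512, and it was 1.77 without cerulein library 2 (adjusted p = 0.188). It passed without control library 1 (2.66, adjusted p = 0.0299) and without cerulein library 1 (2.89, adjusted p = 0.0235), and over all alternatives in which it was tested its adjusted p ranged from 0.0235 to 0.196.

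Stat2, which acts with Irf9 in the type I response and whose promoter core is printed above, measured 2.16, 0.584 and 0.479 FPKM in controls and 0.635, 3.42 and 1.60 FPKM in cerulein libraries. Its groups overlapped, and the log2 fold change was 0.45 (SE 0.45, limma adjusted p = 0.59). Irf9 measured 0.408, 0.454 and 0.312 FPKM in controls, between 1.75 and 107 FPKM in cerulein library 1, and 4.21 and 2.10 FPKM in cerulein libraries 2 and 3, so every cerulein library was higher whatever the placement. Irf1, a factor of the interferon gamma response, measured 5.50, 0.737 and 1.05 FPKM in controls and 4.62 FPKM in cerulein library 1. In cerulein libraries 2 and 3 it lay at or above 10.3 and 4.83 FPKM, so cerulein library 2 exceeded the placed control levels.

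All 3 cytoplasmic RNA sensors were highest in cerulein library 2, against 16.0% of genes with a mean of at least 0.1 FPKM, and next highest in cerulein library 3. Ddx58 (RIG-I; chromosome 4, 40203773 to 40239828), which detects viral RNA ends, measured 0.538, 0.632 and 0.486 FPKM in controls and 1.41, 3.32 and 2.24 FPKM in cerulein libraries. The control libraries were close together and every cerulein library stood above them. The group levels were 0.552 ± 0.0742 and 2.32 ± 0.961 FPKM (SD, n = 3 each), and the log2 difference was 1.06 (SE 0.31, adjusted p = 0.0776 by limma) and 0.85 without cerulein library 2. Ifih1 (MDA5), which detects long double-stranded RNA, measured 0.742, 0.358 and 0.326 FPKM in controls and 0.733, 3.11 and 1.69 FPKM in cerulein libraries, a log2 difference of 0.87 (SE 0.38, adjusted p = 0.197 by limma). Here cerulein library 1 fell just under control library 1. Dhx58 (LGP2), a regulator of both sensors, stayed under the filter of a mean of 1 FPKM, at 0.127, 0 and 0 FPKM in controls and 0.211, 0.787 and 0.598 FPKM in cerulein libraries.

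All 12 restored effectors were highest in cerulein library 2, against 16.0% of genes with a mean of at least 0.1 FPKM. Their summed level was 6.04, 0.970 and 2.92 FPKM in control libraries and 5.62, 80.1 and 12.1 FPKM in cerulein libraries. Thus the sum of cerulein library 1 lay within the control range. Of the 12, 7 passed the filter and were tested, and 5 (Ifit1, Ifit2, Ifit3, Oas1a and Mx1) had a mean under 1 FPKM. None of the 7 passed the test, against 6.39% of all tested genes, and 1 of them (Bst2) had an unadjusted p under 0.05, against 25.0%. Their median log2 fold change was 1.15 with all libraries and 0.42 without cerulein library 2.

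Ifi44, a gene strongly induced by type I interferon (chromosome 3, 151730922 to 151749960), was listed at 0 in every control library and measured 0.0576, 7.24 and 0.176 FPKM in cerulein libraries 1, 2 and 3. Cerulein library 2 held 316 fragments against 2 and 9 in the other cerulein libraries, so it was 41.3 times cerulein library 3. Against 3 fragments in a control library it was at least 23.3-fold higher. Usp18, the protease that removes Isg15 from proteins and restrains the type I receptor, was likewise at 0 in the controls and measured 0.0494, 6.30 and 0.438 FPKM in cerulein libraries. It was at least 11.9-fold above 3 fragments in a control library, and 14.4 times cerulein library 3. The log2 fold changes of Ifi44 and Usp18 over the groups, 1.12 and 1.15, had limma adjusted p values of 0.386 and 0.324.

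Rsad2 (viperin), which makes a chain-terminating nucleotide, was detected in every library at 0.158, 0.616 and 0.187 FPKM in controls and 0.613, 6.08 and 0.901 FPKM in cerulein libraries. Only cerulein library 2, with 350 fragments, stood clear, and it was 6.74 times the next highest. Oasl2, an oligoadenylate synthetase-like protein, measured 1.96, 0 and 0 FPKM in controls and 1.15, 8.86 and 1.41 FPKM in cerulein libraries. Rtp4, a receptor chaperone induced by interferon, measured 0.808, 0.354 and 0 FPKM in controls and 0.395, 8.08 and 1.66 FPKM in cerulein libraries. Control library 1 exceeded cerulein library 1 for Oasl2 and Rtp4 alike. Their log2 fold changes were 1.37 and 1.26 (limma adjusted p = 0.24 and 0.257), and 0.66 and 0.52 without cerulein library 2.

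Bst2 (tetherin), which holds budding virus at the membrane (chromosome 8, 71534255 to 71537456), had, as placed, the highest level among the restored effectors. It measured 0, 0 and 1.94 FPKM in controls and 2.02, 32.1 and 4.63 FPKM in cerulein libraries. As placed, the groups did not overlap, though control library 3 and cerulein library 1 nearly met. The digits of Bst2 allow 1.94 to 194 FPKM in control library 3 and 3.21 to 321 FPKM in cerulein library 2. In cerulein library 1 they allow 2.02 to 20.2 FPKM, so that order rests on the placement. The log2 fold change was 2.53 (SE 0.84, limma adjusted p = 0.108), and 1.52 without cerulein library 2. Isg15, the ubiquitin-like modifier, measured 1.91, 0 and 0.788 FPKM in controls and 0.545, 4.41 and 1.15 FPKM in cerulein libraries, or a log2 difference of 0.60 (SE 0.55, adjusted p = 0.552 by limma). Control library 1 was second only to cerulein library 2, and every level of Isg15 rested on 39 fragments or fewer.

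The effectors of low level were also highest in cerulein library 2, while the order of the other libraries differed among them. Oas1a, a sensor that makes oligoadenylates, measured 0.331, 0 and 0 FPKM in controls and 0.0923, 2.11 and 0.251 FPKM in cerulein libraries. Mx1, a dynamin-like GTPase against influenza virus, was at 0 in the controls and measured 0.172, 1.52 and 0.550 FPKM in cerulein libraries, with cerulein library 2 at least 4.50-fold above 3 fragments in a control library. Ifit1, Ifit2 and Ifit3, which bind viral RNA, reached 1.04, 1.48 and 0.887 FPKM in cerulein library 2, where they rested on 41, 86 and 22 fragments. In every other library the Ifit genes stayed at or under 0.409 FPKM. Xaf1, a gene of cell death induced by interferon, could not be placed in cerulein library 2, but its lowest possible level there was 4.90 FPKM, while no other library exceeded 0.204 FPKM.

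**Figure D3:**
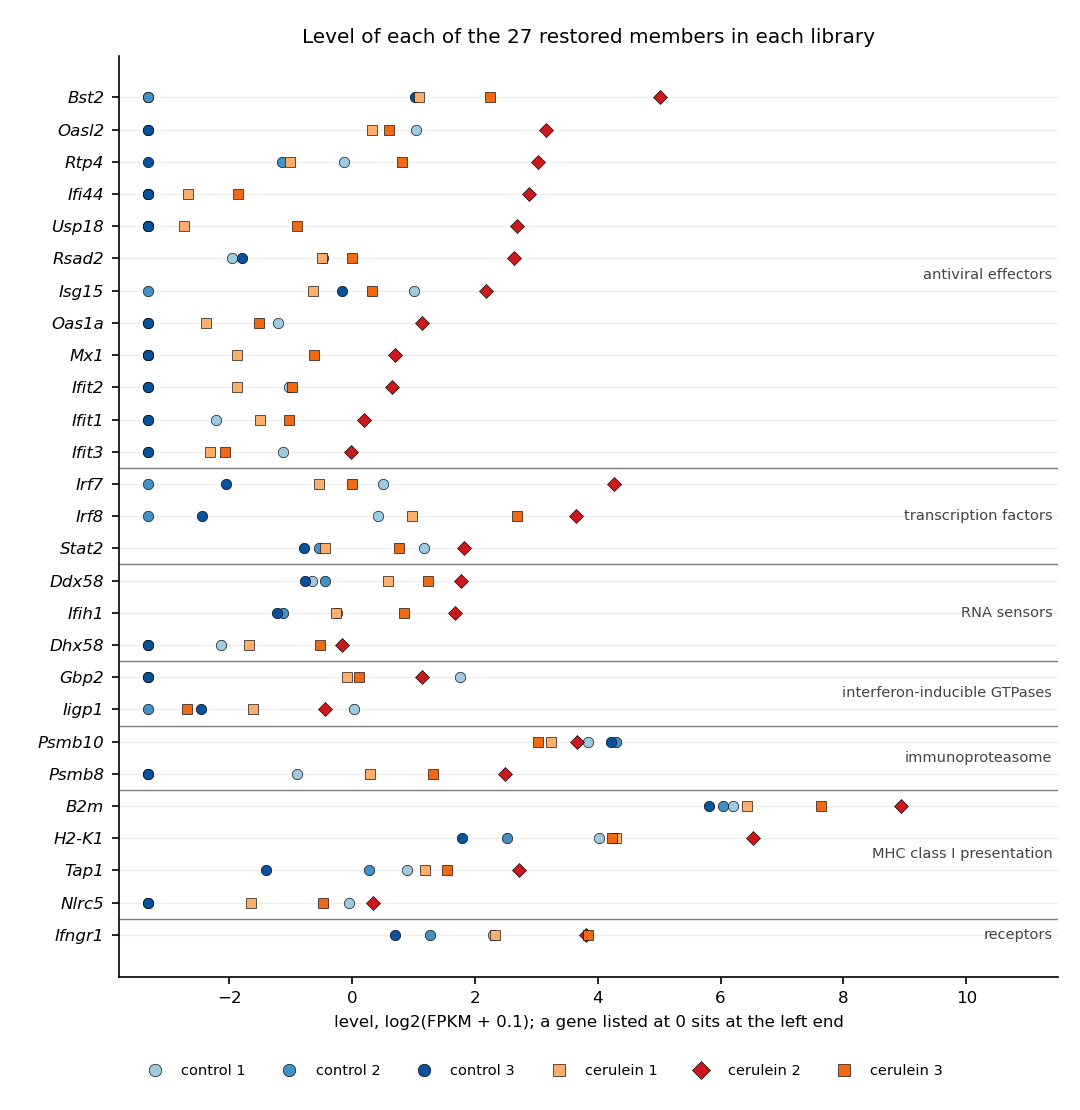
Level of the 27 restored members, as log2(FPKM + 0.1), in each library (blue circles, control; orange squares, cerulein libraries 1 and 3; red diamonds, cerulein library 2), grouped by class. The red diamond is the rightmost point for 23 members; Gbp2 and Iigp1 peak in control library 1, Psmb10 in control library 2 and Ifngr1 in cerulein library 3.

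The interferon-inducible GTPases attack the vacuoles of intracellular pathogens and respond mainly to interferon gamma. Of the members among them 2 were restored, and both were highest in control library 1. Among the cerulein libraries both were highest in library 2. Outside the members, 6 of 10 restored GTPases were highest in cerulein library 2, against 16.0% of genes with a mean of at least 0.1 FPKM. Gbp2 measured 3.27, 0 and 0 FPKM in controls and 0.842, 2.09 and 0.982 FPKM in cerulein libraries, so it was highest in control library 1. Its log2 fold change was 0.47 (SE 0.58, limma adjusted p = 0.659). Without control library 1 it was 1.17, with an adjusted p of 0.0444, so that library decided the call. Iigp1 measured 0.925, 0 and 0.0814 FPKM in controls and 0.228, 0.635 and 0.0543 FPKM in cerulein libraries, again highest in control library 1. Gbp3, Gbp7, Igtp and Irgm1 were not restored, and the GTPases have near relatives that may share their reads. Gbp7 was above every other library in cerulein library 2 whatever the placement (at least 1.33 FPKM against at most 0.942 FPKM), Igtp measured 1.63 FPKM there and at least 1.88 FPKM in control library 1, and the ranges of Gbp3 and Irgm1 overlapped between the groups.

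Of the immunoproteasome genes, 2 were tested, with values of opposite sign, and neither passed. Psmb8, the inducible chymotrypsin-like subunit (chromosome 17, 34197721 to 34201454), measured 0.436, 0 and 0 FPKM in controls and 1.12, 5.50 and 2.38 FPKM in cerulein libraries. Every cerulein library was above every control library whatever the placement, and the log2 fold change was 1.67 (SE 0.44, limma adjusted p = 0.0587). It was 1.25 without cerulein library 2 (adjusted p = 0.222), 1.85 without control library 1 (adjusted p = 0.0395) and 2.05 without cerulein library 1 (adjusted p = 0.0384). Psmb10, another inducible catalytic subunit (chromosome 8, 105935735 to 105938444), was the single tested member with a negative value. It measured 14.1, 19.4 and 18.4 FPKM in controls and 9.30, 12.5 and 8.08 FPKM in cerulein libraries, or 17.3 ± 2.81 and 9.96 ± 2.27 FPKM (SD, n = 3 each). As placed, all 3 cerulein libraries lay below all 3 controls, but the log2 difference of -0.75 (SE 0.33) had a limma adjusted p of 0.203, and it was -0.32 after each library was scaled to its non-enzyme sum.

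Psmb9, the third inducible subunit, measured 1.11, 0 and 0 FPKM in controls and 0.548 FPKM in cerulein library 1, and it lay at or above 3.04 and 1.83 FPKM in cerulein libraries 2 and 3. Exons of Psmb9 overlap those of Tap1. Psme1, a subunit of the interferon-inducible activator PA28, measured 2.77, 3.16 and 1.94 FPKM in controls, 6.92 and 17.5 FPKM in cerulein libraries 1 and 2, and between 2.04 and 13.6 FPKM in cerulein library 3. Its partner Psme2 measured 0.315 and 0.369 FPKM in control libraries 2 and 3 and 0.639, 1.43 and 1.34 FPKM in cerulein libraries, but control library 1 lay between 1.41 and 141 FPKM. The constitutive subunits that Psmb9, Psmb10 and Psmb8 replace are Psmb6, Psmb7 and Psmb5. Their log2 fold changes were -0.55, 0.73 and -0.13 (limma adjusted p = 0.594, 0.234 and 0.883), so none of them passed either, and Psmb6 was 0.09 without cerulein library 2.

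In MHC class I presentation, 4 of 4 restored members were highest in cerulein library 2, against 16.0% of genes with a mean of at least 0.1 FPKM. The 3 that were tested had unadjusted p values under 0.05 by limma, against 25.0% of all tested genes, but did not pass after adjustment. B2m, the light chain (chromosome 2, 122147686 to 122153083), measured 73.8, 66.0 and 56.0 FPKM in controls and 85.8, 488 and 198 FPKM in cerulein libraries. The controls were close together, the groups did not overlap as placed, and the level of cerulein library 2 rested on 5138 fragments. Group levels of B2m were 65.3 ± 8.93 and 257 ± 208 FPKM (SD, n = 3 each), and the log2 difference was 1.63 (SE 0.61, adjusted p = 0.143 by limma) and 1.00 without cerulein library 2. The spread among cerulein libraries was thus far wider than that among controls.

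H2-K1, a classical heavy chain (chromosome 17, 33996017 to 34000347), measured 16.1, 5.66 and 3.36 FPKM in controls and 19.6, 91.9 and 18.7 FPKM in cerulein libraries. As placed, control library 1 lay close below cerulein libraries 1 and 3, while cerulein library 2 was 4.70 times the next highest. The digits of H2-K1 allow 4.56 to 456 FPKM in control library 1 and 9.19 to 919 FPKM in cerulein library 2. That order and ratio therefore rest on the placement. The log2 fold change was 2.08 (SE 0.72, limma adjusted p = 0.118), 1.35 without cerulein library 2 and 2.64 without control library 1 (adjusted p = 0.0456). H2-K1 has near-identical relatives among the class I genes, so reads may have been split between them, and its level is uncertain for that reason as well. H2-D1, the other classical heavy chain of the list, measured 39.0 and 14.6 FPKM in control libraries 1 and 3 and 35.6 FPKM in cerulein library 1, and its ranges elsewhere, such as 15.3 to 1530 FPKM in cerulein library 2, fix no direction.

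Tap1, a subunit of the peptide transporter (chromosome 17, 34187553 to 34197225), measured 1.75, 1.11 and 0.277 FPKM in controls and 2.18, 6.48 and 2.83 FPKM in cerulein libraries, without overlap as placed. Its log2 fold change was 1.21 (SE 0.42, limma adjusted p = 0.121), and 0.84 without cerulein library 2. The other subunit, Tap2, measured 2.00, 1.06 and 0.826 FPKM in controls and 1.42 FPKM in cerulein library 3, and was not placed in cerulein libraries 1 and 2. Tapbp (tapasin), which loads peptides, measured 11.3 FPKM in control library 1 and 12.9, 1.82 and 9.30 FPKM in cerulein libraries. It was not placed in control libraries 2 and 3. The digits of Tapbp in cerulein library 2 allow 1.82 to 182 FPKM, so its order among the libraries rests on the placement. Nlrc5, the transactivator of class I genes, stayed under the filter at 0.860, 0 and 0 FPKM in controls and 0.221, 1.16 and 0.622 FPKM in cerulein libraries.

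**Figure D4:**
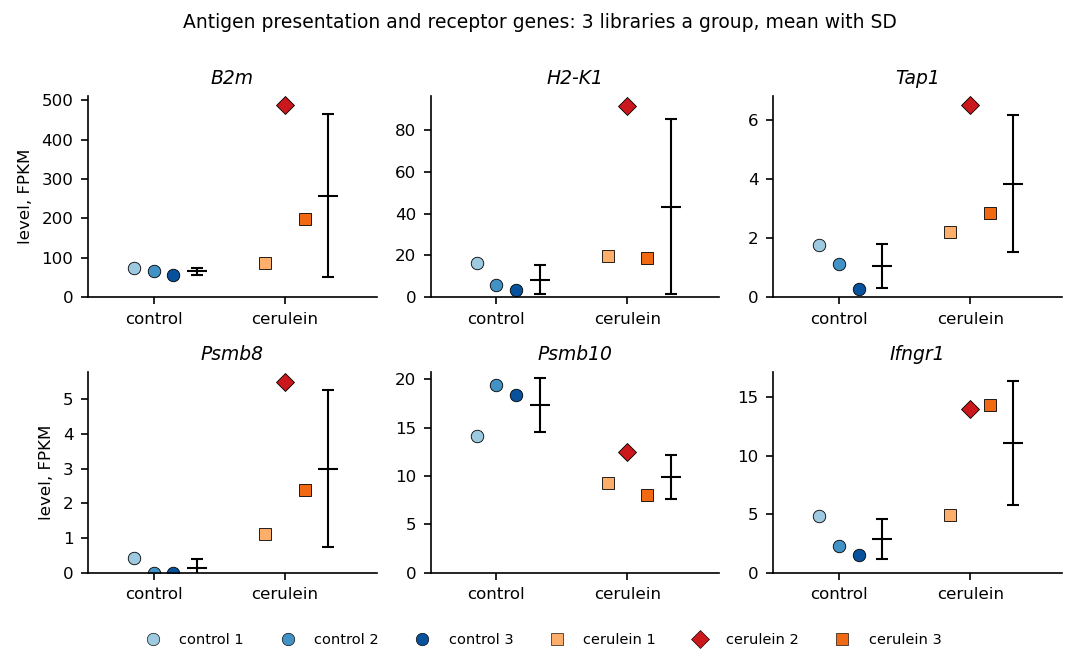
Level in FPKM of 6 genes of antigen presentation and interferon gamma reception in the 3 control and 3 cerulein libraries, with the mean and SD of each group beside the points (axes differ). As placed, cerulein library 2 (red diamond) lies above every other library for B2m, H2-K1, Tap1 and Psmb8. It is matched by cerulein library 3 for Ifngr1, and lies below the controls for Psmb10.

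Outside the 42 members, 110 of 112 listed genes of the interferon pathway were in the table, 88 were restored and 46 were tested. Of the 46, 4 rose, 0 fell and 20 had an unadjusted p under 0.05, against 3.71%, 2.68% and 25.0% of all tested genes, and 16 had a control mean under 1 FPKM and so passed the filter through the cerulein libraries. In the 46, the median log2 fold change was 0.93, or 0.67 without cerulein library 2. Cxcl10, a chemokine for T cells induced by interferon gamma, measured 0.611, 0.809 and 0.494 FPKM in controls and 3.18, 8.26 and 5.79 FPKM in cerulein libraries (log2 difference 1.97, SE 0.34, adjusted p = 0.0175 by limma). Every cerulein library stood clear of the controls, whose levels rested on 2 or 3 fragments each, and exons of Cxcl10 overlap those of Art3. Tmem173 (STING), an adaptor for cytoplasmic DNA, measured 0.800, 0 and 0 FPKM in controls and 2.52, 3.34 and 5.18 FPKM in cerulein libraries (log2 difference 1.90, SE 0.36, adjusted p = 0.0237 by limma). The second chain of the interferon gamma receptor, Ifngr2, measured 1.66, 2.64 and 1.39 FPKM in controls and 5.25, 6.37 and 5.19 FPKM in cerulein libraries (log2 difference 1.21, SE 0.28, adjusted p = 0.0432 by limma). Samhd1, which depletes nucleotides, measured 3.13, 1.91 and 0.690 FPKM in controls and 4.82, 10.4 and 11.9 FPKM in cerulein libraries (log2 difference 1.80, SE 0.44, adjusted p = 0.0491 by limma). In these 4 genes cerulein libraries 2 and 3 were closer to each other than in Irf7 or Ifi44. None of the 4 passed without cerulein library 2 (limma adjusted p = 0.098 to 0.207), when 1.17% of all genes did. Their log2 fold changes were then 1.71 (Cxcl10), 1.94 (Tmem173), 1.13 (Ifngr2) and 1.67 (Samhd1). Nor did any of them pass without cerulein library 3 (limma adjusted p = 0.102 to 0.208), when 0.924% of all genes did.

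Of 77 restored pathway genes with a mean of at least 0.1 FPKM, 47 were highest there, against 16.0% of all genes, and 4 (Ddx60, H2-Q6, Oas3 and Zbp1) were at least 4-fold above every other library, against 0.48%. The interferons themselves were at or near 0. Ifna1, Ifna2, Ifna4, Ifnl2 and Ifnl3 were listed at 0 in all 6 libraries, Ifnb1 had 6 and 9 fragments in cerulein libraries 2 and 3 and 0 elsewhere, and Ifng had 1 fragment, in cerulein library 3. Ifnk had 2 and 1 fragments in cerulein libraries 2 and 3, and Ifne had 3 in control library 1.

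Markers of other cell types also differed between the cerulein libraries, and not all with the same order. The summed level of 7 T and NK cell genes was 1.02, 0 and 0.359 FPKM in control libraries and 2.21, 8.17 and 2.63 FPKM in cerulein libraries, so it too was highest in cerulein library 2. Of these 7 genes, 0 were at 0 in cerulein library 2, against 1 each in cerulein libraries 1 and 3 and 5 to 7 in the control libraries. The 3 markers of plasmacytoid dendritic cells, which make much type I interferon, summed to 9.37, 11.8 and 2.23 FPKM in controls and 2.71, 20.3 and 12.9 FPKM in cerulein libraries, with patterns that differed. Siglech measured 0.191, 0 and 0 FPKM in controls and 0.223, 12.7 and 5.23 FPKM in cerulein libraries, and Ly6d was at 0 in the controls and at no more than 1.16 FPKM in the cerulein libraries, highest in library 2. Tcf4 was highest in control library 2, at 9.17, 11.8 and 2.23 FPKM in controls and 2.21, 6.49 and 6.69 FPKM in cerulein libraries (log2 difference -0.40, adjusted p = 0.713 by limma). As placed, the 8 restored of 12 leukocyte and macrophage genes summed to 201.3 FPKM in cerulein library 2 and 225.1 FPKM in cerulein library 3. Over all 12 the digits allow 73.5 to 5939 FPKM and 62.0 to 4826 FPKM, so that order is not settled. The 3 restored of 4 genes of MHC class II summed, as placed, to 40.6 and 117.1 FPKM, while the antiviral effectors summed to 80.1 and 12.1 FPKM. Over all 4 genes of MHC class II the digits allow 13.4 to 1158 FPKM and 18.5 to 1845 FPKM, so their order is not settled either. As placed, fibroblast and matrix genes (2 of 6 restored), endothelial genes (4 of 4) and the duct gene Sox9 (1 of 3) did not peak in cerulein library 2. They stood at 32.4, 4.31 and 5.71 FPKM there. Over all 6 fibroblast and matrix genes the digits allow 34.1 to 3349 FPKM there and 49.1 to 3242 FPKM in cerulein library 3. Over all 3 duct genes they allow 8.98 to 689 FPKM and 16.9 to 1608 FPKM, so neither order is settled. The part of these cells in the levels of the members was not tested.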

How the data were processed

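The authors deposited 1 table of FPKM per transcript for 6 libraries of ribosome-depleted RNA, recorded here as another unit because a spreadsheet had removed decimal marks: 18.0% to 21.4% of transcripts in a library had no usable mark. Per the submitters' processing notes, fastp, HISAT2, featureCounts, DESeq2 and the mm10 build were used, in roles that are not stated, and which tool computed FPKM is not given there. The design assumed FPKM; the same test was applied to restored values.

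Marks were restored from the rule that a gene's FPKM times effective length (GENCODE M21, 98.9% of transcripts) gives whole fragments. Candidates were weighed by that distance and by how often each level occurs, accepted at a posterior of 0.95, with totals within 5% pooled and a transcript's length allowed to change by up to 600 bases, which 7 members used. No replicate term was used, a choice made after the members' values were seen. Of 425 intact values masked as a check, 313 were placed and 311 of these (99.4%) were right, as were 18 of 19 placed values from the highest range, of 100 FPKM or more. Each came from a gene with no other lost mark in that library, so genes with several lost marks were not checked in this way. Levels are sums over a gene's transcripts, and 16 members have exons that overlap another gene.

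Groups were taken from the labels. limma 3.58.1 (R 4.3.3, trend) was fitted to log2(FPKM + 1) of genes restored in all 6 libraries with a mean of at least 1 FPKM, without covariates, with Benjamini-Hochberg adjustment over all 6166. Fold changes on this scale understate changes of low genes. The fit was tested on simulated data for this comparison, in 2500 genes: 90.3% of tested genes with a 4-fold change were called, 9.84% of those with a 2-fold change, and 4 unchanged genes. The simulation used restored genes only and drew every library with the same spread. Many members varied more than that among the cerulein libraries, so these shares do not apply to them. Alternatives were the pseudocount, filters, scaling, replicate block, posterior, a replicate term and each library left out. Every member is accounted for by its values or bounds, and pathway genes are named when past the threshold. The members and lists were chosen with earlier results of these data known. 1 gene listed, Mx2, was not analysed here. A result on 1 further pathway gene is not reported here.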

Additional observations from a re-analysis of the deposited data

How the results depend on the processing

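None of the 19 tested members passed, and 0 passed with a pseudocount of 0.1 (19 tested), with no filter (27) or with a filter of 5 FPKM (5 tested). When each library was scaled by its non-enzyme sum 4 passed, against 11.1% of all genes. At a posterior of 0.99 1 of 5 passed, against 6.24%, and with a replicate spread of 1.5 in the placement 1 of 21, against 7.35%. With a spread of 0.6 4 of 23 passed, against 10.4%, among them Irf9, which is not one of the 19. With a library left out 0 to 5 of the 19 passed, against 0.924% to 16.2% of all genes. Among the other pathway genes 4 passed, against 1 with a pseudocount of 0.1, 0 with no filter, 0 with a filter of 5 FPKM, 9 when scaled, 2 at a posterior of 0.99, 12 with a spread of 0.6, and 0 to 11 with a library left out (0 when it was cerulein library 2 or 3 or control library 2, 2 for control library 3, 8 for cerulein library 1 and 11 for control library 1). Of these pathway calls, 1 was lower in cerulein at a posterior of 0.99, 3 with a spread of 0.6 and 1 without control library 1. Over all genes 394 changed, against 248 with a pseudocount of 0.1, 127 with no filter, 231 with a filter of 5 FPKM, 693 when scaled (85.3% of them higher, against 58.1%), 134 at a posterior of 0.99, 827 with a spread of 0.6, and 57 to 998 with a library left out (57 for cerulein library 3, 72 for cerulein library 2, 99 for control library 2 and 998 for control library 1). The 9 members separated whatever the placement became 4 from transcripts intact in every library, 15 with accepted placements used (14 higher and Psmb10 lower, against 14.2% and 7.2% of genes), and 9 to 25 with a library left out. The cause of these changes was not tested.

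The labels number the libraries 1 to 3 in each group. Same-numbered libraries deviated together with correlations of 0.096, 0.095 and -0.050, so the numbers were not taken as pairs. With a replicate block 173 genes changed, 0 of the 19 members and 1 pathway gene. Of 323 values of single genes under an alternative, 279 kept their side of the threshold, 17 passed where they had not, 27 no longer passed and none that passed turned sign. The replicate spread of 0.6 and the use of accepted placements were chosen after seeing the data. Depth limits the controls most, since a gene at 0 there can hold the level of 3 fragments.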

Other observations

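Over all genes restored with a mean of at least 0.1 FPKM, 49 were at least 4-fold above every other library in cerulein library 2. Of these, 9 were members, 4 were on the list of other pathway genes and 36 were on neither list. As placed, the 36 were led in ratio by 2210407C18Rik (8.16 FPKM in cerulein library 2 against at most 0.0787 FPKM) and Cnot11 (123 against at most 4.28 FPKM). Ccdc12 (33.3 against at most 2.43 FPKM) and Nsun3 (14.7 against at most 2.41 FPKM) were also among them. The genes named here are a part of the 36, and their ratios rest on the placement where a mark was lost. Named after their values were seen, the 36 included Ifi44l (1.06 FPKM in cerulein library 2 and 0 elsewhere), Slfn4 (5.46 FPKM against at most 0.715 FPKM) and Ifi27l2b (6.79 FPKM against at most 1.07 FPKM), which belong to families of interferon-stimulated genes. They also included genes of T cells: Ctla4 (1.72 FPKM and 0 elsewhere), Cd8b1 (1.60 FPKM against at most 0.121 FPKM), Cd3d (1.22 FPKM against at most 0.0944 FPKM), Cd4 (3.44 FPKM against at most 0.672 FPKM) and Cd5 (2.00 FPKM against at most 0.396 FPKM). No explanation was tested for their joint peak with the antiviral effectors.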
